A study of Homo sapiens with 2 samples.

Results

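The miRNA tables of FaDu cells list 2038 names, and 9 of them were examined here because their entries coincide with, or resemble, another kind of non-coding RNA. They fall into 3 parent classes: 4 snoRNA-like names (miR-3651, miR-664a-3p, miR-3609 and miR-3653), 3 tRNA-like names (miR-1260a, miR-1260b and miR-4454) and 2 names that resemble mitochondrial RNA (miR-4485 and miR-4284). They were found by name in both tables, and all 9 were present. The names were chosen by their parent RNA class, in a list selected on the RPKM values of both libraries, so the values below describe these names and carry no test. The libraries come from FaDu (FadU in the labels), an established squamous cell carcinoma line of the hypopharynx. The first library was made from parental cells, kept in RPMI-1640 with 10% fetal bovine serum. The other was made from spheres, grown without listed serum in DMEM-F12, with bFGF at 10 ng/ml, EGF at 10 ng/ml and the N2 Plus Supplement, which the labels call sphere-derived cancer stem cells. Both media held penicillin and streptomycin. Medium, serum and growth form changed together and cannot be told apart, and with 1 library per group there is no replicate error and no test between conditions.

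Small nucleolar RNAs (snoRNAs) guide chemical modification of ribosomal and spliceosomal RNA: H/ACA snoRNAs direct pseudouridylation, C/D snoRNAs direct ribose methylation, and scaRNAs do this work in Cajal bodies. Transfer RNAs carry amino acids to the ribosome and end in the bases CCA, which are added after transcription. Mitochondria transcribe their own ribosomal and transfer RNAs from the mitochondrial genome. Pieces of all these RNAs enter small RNA libraries, and several miRNA entries were later recognised to lie in, or to match, such RNAs. Some snoRNAs are known to be cut by Dicer into fragments that load on Argonaute.

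RefSeq (GRCh38.p14) held the mature sequence of 7 of the 9 names. miR-3609 and miR-3653 were not in that table. The sequences are shown because they tie each name to its parent RNA. Capitals mark the seed, bases 2 to 8, with which a miRNA pairs to its targets.
miR-3651: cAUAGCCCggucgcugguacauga
miR-664a-3p: uAUUCAUUuauccccagccuaca
miR-1260a: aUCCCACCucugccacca
miR-1260b: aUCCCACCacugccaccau
miR-4454: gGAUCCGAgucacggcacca
miR-4485: uAACGGCCgcgguacccuaa
miR-4284: gGGCUCACaucaccccau

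These 7 sequences carry 6 distinct seeds. miR-1260a and miR-1260b share one, and no other mature name in the RefSeq table has any of the 6. The pair matches at 17 of 18 aligned bases. Counted from the 5′ end of miR-1260a, the change from miR-1260a to miR-1260b is U9A, just outside the seed, and miR-1260b has 1 further base at its 3′ end. Of the 7, 5 (miR-1260a, miR-1260b, miR-4454, miR-4485 and miR-4284) are 20 nt or shorter, as are 15.4% of the 2370 mature names in the RefSeq table, whose median length is 22 nt. The GC content of the 7 runs from 39.1% for miR-664a-3p to 65.0% for miR-4454, with a median of 60% against 52.2% for the whole table.

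The parent RNA was checked in 2 ways, by overlap of hairpin coordinates with other genes and by searching the mature sequence in 5716 non-coding transcripts of GENCODE 29 (snoRNA, scaRNA, snRNA, rRNA, mitochondrial and similar classes). Coordinates are on GRCh38. The submitters' processing notes name hg19, but the tables hold no coordinates, so none were converted. The hairpin of miR-3651 (chr9:92292458-92292547, minus strand) shares 87 of its 90 bases with SNORA84, an H/ACA snoRNA in an intron of IARS, the isoleucyl-tRNA synthetase gene. That of miR-664a-3p (chr1:220200538-220200619, minus strand) shares 74 of 82 bases with SNORA36B, an H/ACA snoRNA in an intron of RAB3GAP2. That of miR-3653 (chr22:29333158-29333267, minus strand) shares 96 of 110 bases with the C/D snoRNA SNORD125, in an intron of AP1B1. The miR-3609 hairpin (chr7:98881650-98881729, plus strand) lies in an intron of TRRAP. It overlaps no annotated snoRNA in GENCODE 29. In RefSeq it shares 33 of its 80 bases with SCARNA28, a scaRNA. The snoRNA label therefore holds by annotation for 3 names, and for miR-3609 only through a scaRNA.

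Both H/ACA entries sit at the 3′ end of their parent. miR-3651 is bases 110 to 133 of the 133 bases of SNORA84. miR-664a-3p is bases 106 to 128 of the 131 bases of SNORA36B, and its opposite arm, miR-664a-5p, is bases 68 to 91 of the same RNA. The ends of the parents are printed with the miRNA letters in capitals, from base 90 of SNORA84 and from base 60 of SNORA36B.
SNORA84: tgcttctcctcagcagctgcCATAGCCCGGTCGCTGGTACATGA
SNORA36B: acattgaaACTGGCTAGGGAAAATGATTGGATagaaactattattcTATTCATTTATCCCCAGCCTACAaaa

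Each parent has the trinucleotide ACA 3 bases before its 3′ end, the place of the ACA box that names the family. The ACA of SNORA84 is followed by the last 3 bases of miR-3651, and that of SNORA36B is the last 3 bases of miR-664a-3p. Of 149 GENCODE transcripts named SNORA, 75.2% have ACA at this position, and of 288 named SNORD 1.39% (sense strand only, since the transcripts are stranded).

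The mitochondrial label holds at the level of the mature sequence. All 18 bases of miR-4284 are bases 49 to 66 of the 71 bases of MT-TF, the mitochondrial tRNA for phenylalanine. All 20 bases of miR-4485 are bases 893 to 912 of MT-RNR2, the large mitochondrial ribosomal RNA. MT-TF is printed whole and MT-RNR2 from base 873 to 950, with the miRNA letters in capitals.
MT-TF: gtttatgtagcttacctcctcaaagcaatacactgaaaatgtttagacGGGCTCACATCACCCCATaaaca
MT-RNR2: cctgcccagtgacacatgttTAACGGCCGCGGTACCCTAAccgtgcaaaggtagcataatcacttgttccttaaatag

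The annotated hairpins of both names lie in the nuclear genome. The hairpin of miR-4485 (chr11:10508270-10508326, minus strand) is in an exon of MTRNR2L8, a nuclear copy of MT-RNR2, and its longest run shared with MT-RNR2 is 24 bases. The hairpin of miR-4284 (chr7:73711317-73711397, plus strand) lies opposite an intron of STX1A, and its longest run shared with MT-TF is 18 bases, no more than the mature sequence itself. Whether reads came from the nuclear or the mitochondrial copy cannot be told apart over the mature letters.

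**Figure D1:**
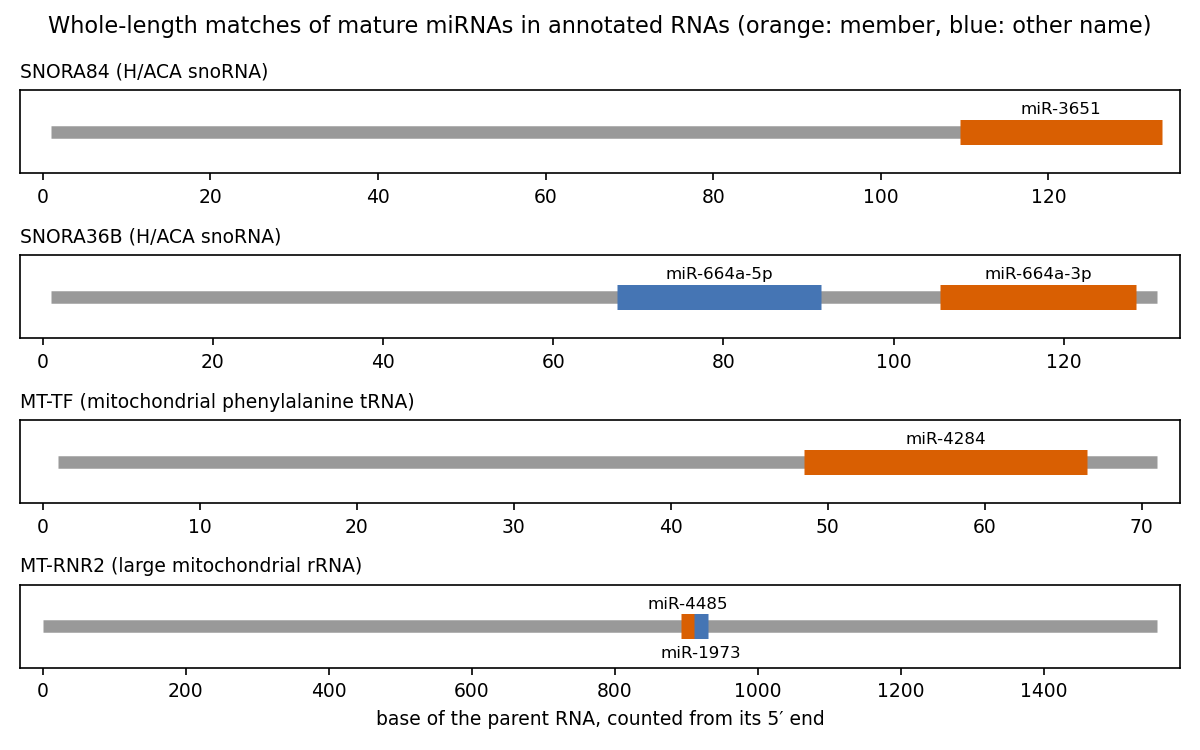
Position of mature miRNAs within 4 annotated RNAs, with the base of the parent RNA from its 5′ end on the horizontal axis and a scale of its own for each RNA. Orange blocks are the examined names and blue blocks other names. miR-3651 and miR-664a-3p lie at the 3′ ends of SNORA84 and SNORA36B, miR-4284 ends 5 bases before the end of MT-TF, and miR-4485 and miR-1973 are neighbours inside MT-RNR2.

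The tRNA label could be checked in part. No whole match of miR-1260a, miR-1260b or miR-4454 was found in the 5716 transcripts, which hold no nuclear tRNAs, and none of their hairpins overlaps any of the 465 tRNA genes in the RefSeq table. The letters of nuclear tRNAs were not used here. miR-1260a and miR-4454 end in CCA, the terminus of a mature tRNA, as do 1.90% of the 2370 mature names, and miR-1260b ends in CCA plus 1 base. The hairpin of miR-1260a (chr14:77266218-77266290, plus strand) lies opposite an exon of NGB, and that of miR-1260b (chr11:96341438-96341526, plus strand) opposite an exon of MAML2. The hairpin of miR-4454 (chr4:163093574-163093628, minus strand) overlaps no other annotated gene.

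The deposited values are RPKM, reads per kilobase of feature and per 1000000 reads, so levels of different names are per length. Low values fell on steps. The commonest product of RPKM and mature length was taken as 1 read, which puts 7782765 reads behind the parental and 5630047 behind the sphere values. On this estimate miRNA names took 58.5% of the reads in parental cells and 12.1% in spheres. The RPKM column summed to 26530004 in parental cells and 5509071 in spheres, which is 4.82 times less. Each name is therefore given on 2 scales: RPKM as deposited, and rescaled RPKM, where each column sums to 1000000. A log2 difference between spheres and parental cells is 2.27 lower on the deposited scale than on the rescaled one, so the direction of a name can depend on which of the 2 is read, and both are given throughout. The 4 squamous epithelial markers (miR-205-5p, miR-203a, miR-200c-3p and miR-141-3p) had 15528 to 582008 RPKM in parental cells and 5095 to 193129 in spheres. Of 14 markers of other cell types, 3 were listed at 0 in both (miR-122-5p of liver, miR-124-3p of neurons and miR-206 of muscle). The most abundant of the 14 were the erythroid miR-486-5p (19664 RPKM in parental cells, 1138 in spheres), the neural miR-9-5p (9240 and 2363) and the stromal miR-143-3p (686 and 365). The other 8, of erythroid, leukocyte, muscle and stromal lists, had at most 86.2 RPKM in either library, among them miR-133a of muscle (52.6 and 81.3) and the leukocyte miR-142-5p (86.2 and 67.6) and miR-150-5p (0 and 72.7). The part of these cell types in the values below was not tested.

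All 9 names were rare. Together they had 2097 RPKM in parental cells and 1632 in spheres, on about 321 and 189 estimated reads. They made up 0.00790% of the RPKM sum in parental cells and 0.0296% in spheres, a 3.75-fold higher share (95% counting interval 3.12 to 4.50). As deposited they were 1.28-fold lower in spheres (1.07 to 1.55). Intervals are Clopper-Pearson or Poisson intervals of estimated reads. Since most of these estimates are not whole numbers, the intervals are approximate. They set 1 library against another, not condition against condition. PCR duplicates are counted as if independent, so only counting error is covered.

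The spread among the 9 was wide in parental cells and narrow in spheres, which is in part fixed by selection. All 9 pass a minimum mean over both libraries, given below, and 6 of them passed through their sphere value alone. The sphere values of these 6 thus had a lower bound, while their parental values had none. In parental cells the 9 names ran from 21.4 RPKM for miR-3609 to 678 for miR-1260b, a 31.7-fold range. In spheres they ran from 98.0 for miR-664a-3p to 228 for miR-1260b, a 2.33-fold range. Of the 36 pairs of names, the 95% counting intervals were separate for 25 in parental cells and for 0 in spheres, where each name had 12.7 to 26 estimated reads. In parental cells the order was miR-1260b, miR-1260a, miR-4454, miR-3651, miR-664a-3p, miR-4284, miR-4485, miR-3653 and miR-3609. Of the 8 neighbours in that order, only miR-1260a and miR-4454 had separate intervals. The sphere order began with the same 4 names, but no neighbour there was separate. In parental cells the tRNA-like names were highest and the 2 of the TRRAP and AP1B1 introns lowest, while in spheres no order can be read beyond counting error.

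**Figure D2:**
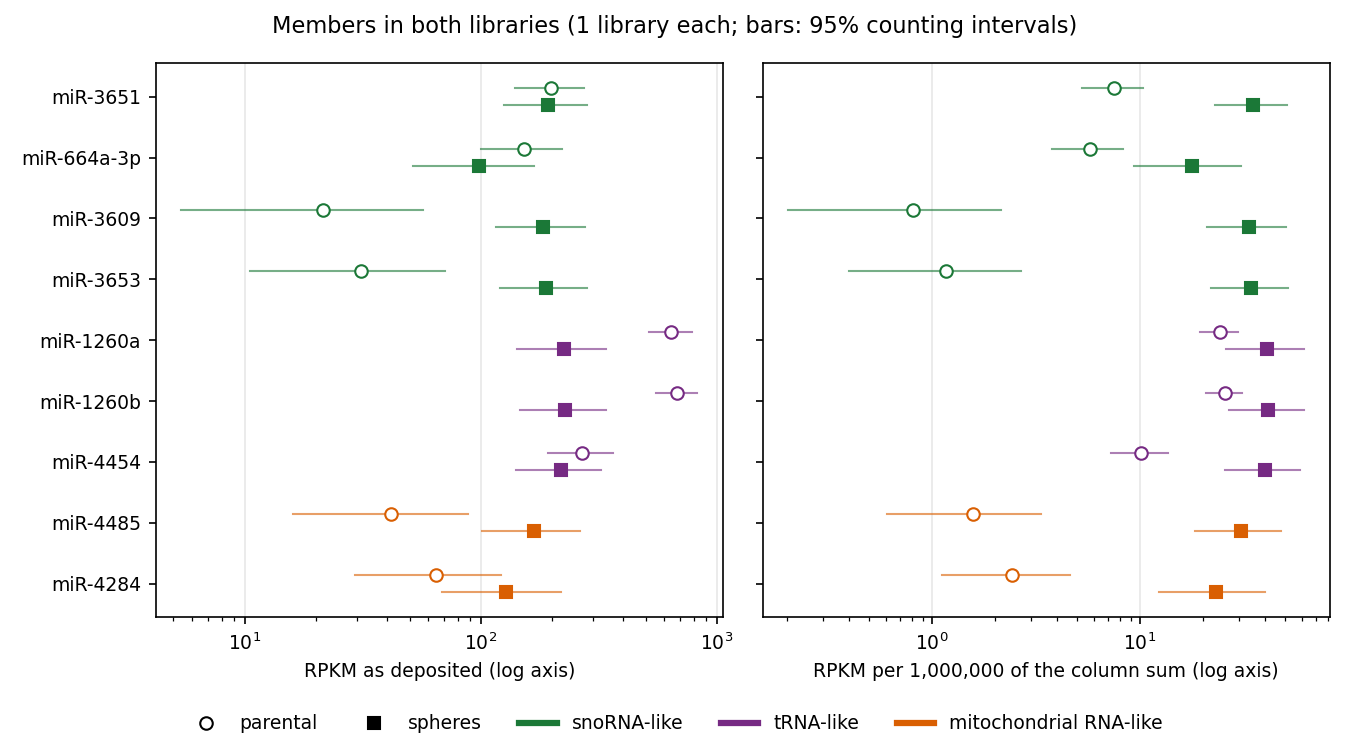
Values of the 9 names as deposited (left, RPKM) and rescaled (right, RPKM per 1000000 of the column sum), both on log axes. Open circles are the parental and filled squares the sphere library, and bars are 95% counting intervals. The sphere values lie close together, at 98.0 to 228 RPKM as deposited, while the parental values run from 21.4 to 678. This contrast is in part fixed by selection.

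The classes held different parts of the total in the 2 libraries. This too is in part fixed by selection, since the snoRNA-like and mitochondrial names passed the minimum mean through their sphere value alone. The tRNA-like names made up 75.7% of the summed RPKM of the 9 in parental cells and 41.2% in spheres. These parts take the reads of miR-1260a and miR-1260b as separate, which their near-identical letters do not ensure. The snoRNA-like names made up 19.2% and 40.6%, and the mitochondrial pair 5.06% and 18.2%. Read by class, the mitochondrial sum was 13.5-fold higher in spheres as a share of the column (7.13 to 26.5) and 2.80-fold higher as deposited (1.48 to 5.50). The snoRNA sum was 7.93-fold higher as a share (5.73 to 11.0) and 1.65-fold higher as deposited (1.19 to 2.28). The deposited difference holds for these 4 names only: with the 7 other listed snoRNA-like names added, the ratio was 0.956 (0.758 to 1.20). The tRNA sum was 2.04-fold higher as a share (1.54 to 2.67) and 2.36-fold lower as deposited (1.80 to 3.12).

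Differences between classes in log2 fold, taken here without pseudocount, do not depend on the scaling, but they do depend on the names counted. As a share, miR-3609 and miR-3653 together were 34.2-fold higher in spheres (16.5 to 79.5). The H/ACA pair was 3.99-fold higher (2.61 to 6.04), near the tRNA-like miR-4454 at 3.93-fold (2.29 to 6.62). With the other listed names added, the snoRNA sum was 4.60-fold higher, the tRNA sum 2.11-fold and the mitochondrial sum 9.98-fold. Over the 9 names alone, the tRNA sum lay below the snoRNA sum, with a difference of -1.96 (-2.55 to -1.37). The 3 tRNA-like names reached the level of the minimum mean, given below, in both libraries, while the other 6 reached it only in spheres. Differences from the tRNA sum are therefore in part fixed by selection, and they support no statement about the classes. The mitochondrial sum lay 2.72 above the tRNA sum (1.77 to 3.68), while its difference from the snoRNA sum, 0.76, had an interval that includes 0 (-0.22 to 1.75). These intervals are normal approximations over the estimated reads of each class, and they take the reads of miR-1260a and miR-1260b as separate, which their near-identical letters do not ensure.

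Of the 9 names, 7 were at least 2-fold higher in spheres as a share of the column, and none was at least 2-fold lower. Among the 269 names whose mean over both libraries was 10 rescaled RPKM or more (called measured), 23% were at least 2-fold higher and 19% at least 2-fold lower. As deposited, 3 of the 9 were at least 2-fold higher and 2 at least 2-fold lower, against 6.32% and 79.6% of the 269. The 2 lower names were the near-identical miR-1260a and miR-1260b, which cannot be taken as separate measurements. The median log2 fold of the 9 was 2.15 as a share and -0.042 as deposited, and that of the 269 was 0.020 and -2.25. All 9 pass the minimum mean, but 6 of them (all but the tRNA-like names) had under 10 rescaled RPKM in parental cells and passed through their sphere value alone. Of the 32 names of the whole table in that position, 27 were at least 2-fold higher. The count of 7 is therefore in part fixed by the filter, and it supports no statement about the set.

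**Figure D3:**
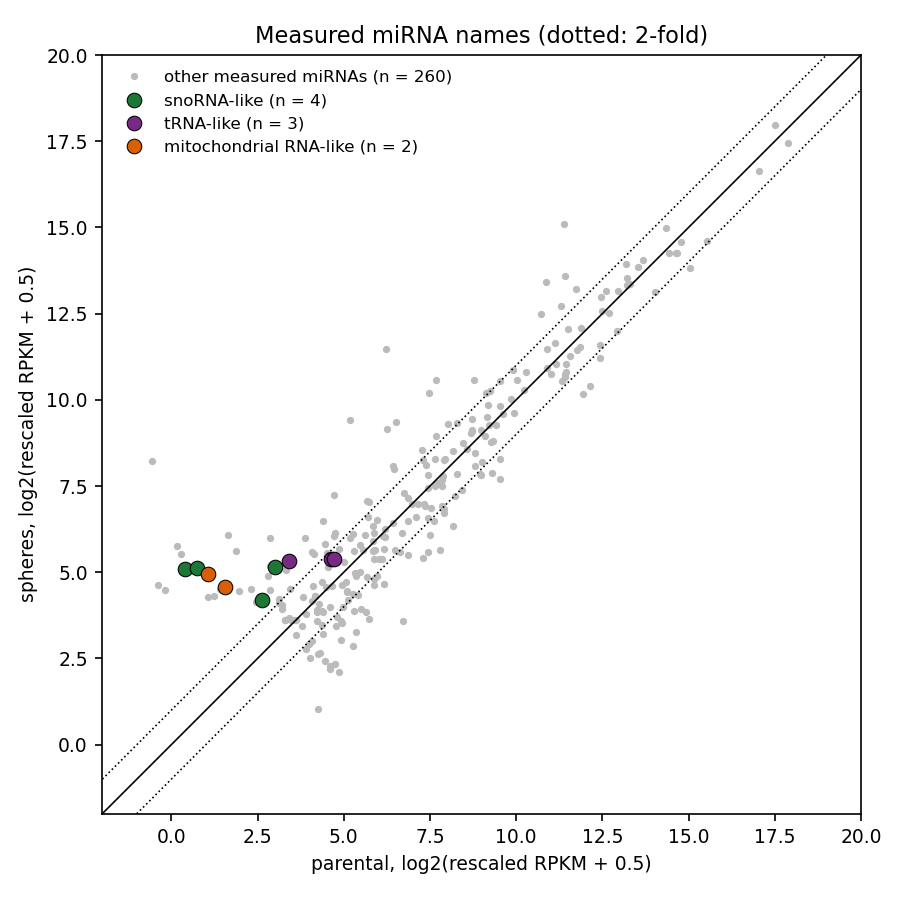
Level of each of the 269 names in parental cells (horizontal) and spheres (vertical), as log2 of rescaled RPKM plus 0.5. The solid line marks equal shares and dotted lines a 2-fold difference. The 9 names lie at the low end, with sphere values of 17.8 to 41.4 rescaled RPKM, and 7 of them lie above the upper dotted line.

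Among the snoRNA-like names, the H/ACA pair was within counting error between the libraries as deposited, while miR-3609 and miR-3653 were higher in spheres on both scales. miR-3651, the 3′ end of SNORA84, had 198 RPKM in parental cells and 192 in spheres, on 37 and 26 estimated reads. The deposited values thus lay within counting error of each other, with a ratio of spheres to parental of 0.971 (0.565 to 1.65). Rescaled, miR-3651 went from 7.47 to 34.9, a 4.68-fold higher share (2.72 to 7.94).

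miR-664a-3p, the 3′ arm of the hairpin in SNORA36B, had 152 RPKM in parental cells and 98.0 in spheres, on 27.2 and 12.7 estimated reads. It was 1.55-fold lower as deposited, with an interval that includes no difference (0.770 to 3.30). As a share it was 3.10-fold higher, from 5.73 to 17.8 rescaled RPKM (1.46 to 6.25). Its opposite arm, miR-664a-5p, had 13.4 and 18.5 RPKM, on 2.50 estimated reads in each library. That is under the 3 reads below which a level cannot be told from 0, so no ratio between the arms is given. Whether arm use differed between the libraries could not be read at this depth.

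miR-3609, in TRRAP and overlapping SCARNA28, had 21.4 RPKM in parental cells and 183 in spheres. At an assumed length of 22 nt this is 3.67 and 22.7 reads. It was higher in spheres on both scales, 8.57-fold as deposited (2.82 to 36.7) and 41.3-fold as a share (13.6 to 177). miR-3653, which overlaps the C/D snoRNA SNORD125, had 31.1 and 189 RPKM, or 5.32 and 23.4 reads at 22 nt. It was 6.09-fold higher as deposited (2.32 to 19.6) and 29.3-fold higher as a share (11.2 to 94.6). In both names the whole counting interval lay above 2-fold on both scales, which held for 4.09% of the 269 names as deposited and 16.7% as a share. In the other direction, the whole interval of none of the 9 lay below 2-fold, against 72.9% of the 269 as deposited and 6.32% as a share. Both comparisons are in part fixed by the filter, since 6 of the 9, miR-3609 and miR-3653 among them, passed it through their sphere value alone. They support no statement about the set. The names miR-3609 and miR-3653 ranked 6 and 9 of 269 by log2 fold of the share.

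The near-identical tRNA-like pair had near-equal values in both libraries, and both names were lower in spheres as deposited. miR-1260a had 641 RPKM in parental cells and 225 in spheres, on 89.9 and 22.8 estimated reads. miR-1260b had 678 and 228 RPKM, on 100.3 and 24.4 reads. The ratio of miR-1260b to miR-1260a was 1.06 in parental cells (0.787 to 1.42) and 1.01 in spheres (0.549 to 1.88). As deposited both were lower in spheres, miR-1260a by 2.85-fold (1.78 to 4.73) and miR-1260b by 2.97-fold (1.89 to 4.83). As shares they were 1.69-fold (1.02 to 2.70) and 1.62-fold higher (0.996 to 2.54), the latter interval including no difference. Since the 2 sequences differ at so few bases, the division of reads between them is uncertain, and they cannot be taken as separate measurements.

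miR-4454 ends in CCA like miR-1260a but has another seed. It had 269 RPKM in parental cells and 219 in spheres, on 41.8 and 24.7 estimated reads. The 2 deposited values lay within counting error, at a ratio of 0.817 (0.476 to 1.38), while as a share it was 3.93-fold higher (2.29 to 6.62). Within the tRNA class, its log2 fold of 1.92 as a share stood beside 0.74 for miR-1260a and 0.69 for miR-1260b.

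The 2 names with mitochondrial letters were low in parental cells and near the other names in spheres. Both passed the minimum mean through their sphere value alone, so this contrast is in part fixed by selection. miR-4485 had 41.8 RPKM in parental cells and 168 in spheres, on 6.50 and 19.0 estimated reads. It was 4.03-fold higher as deposited (1.59 to 11.8) and 19.4-fold higher as a share (7.65 to 56.8). miR-4284 had 64.4 and 128 RPKM, on 9.02 and 13.0 reads. It was 1.99-fold higher as deposited, with an interval that includes no difference (0.788 to 5.28), and 9.59-fold higher as a share (3.80 to 25.4). The ratio of miR-4485 to miR-4284 was 0.648 in parental cells (0.198 to 1.99) and 1.31 in spheres (0.615 to 2.89). The levels of miR-4485 and miR-4284 were thus not separable in either library.

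**Figure D4:**
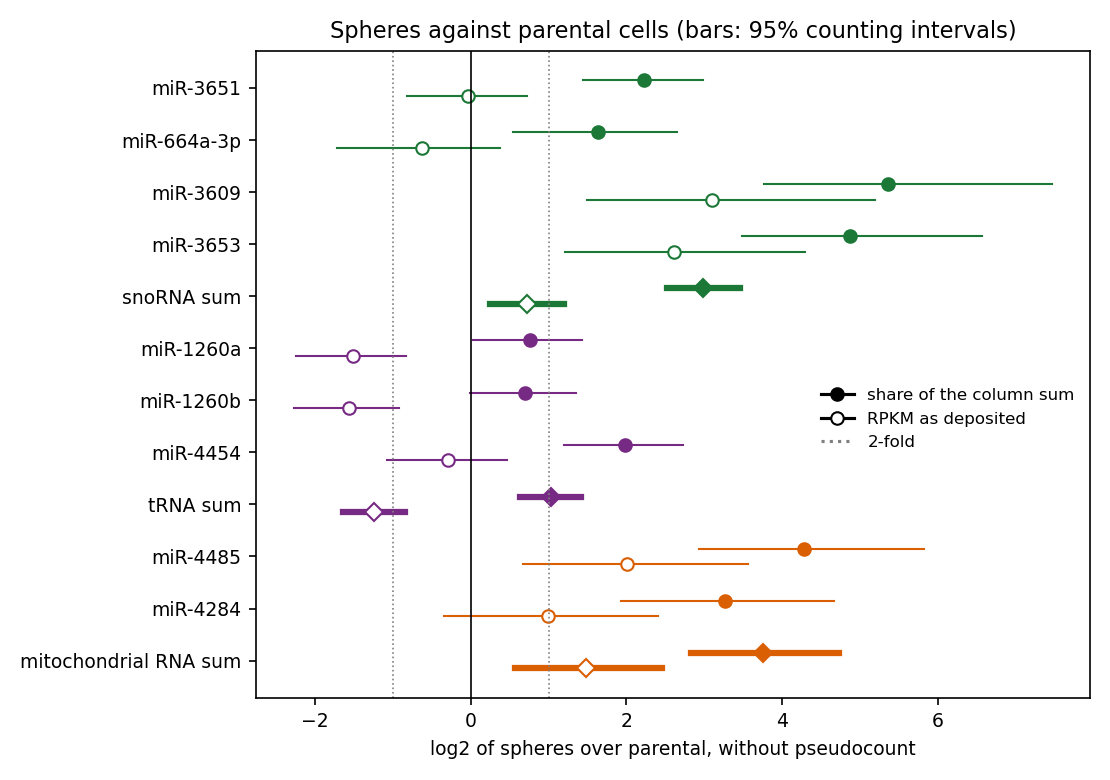
Log2 of the ratio of spheres to parental cells for each name (circles) and for the sum of each class (diamonds), without pseudocount, with 95% counting intervals. Filled symbols use the share of the column sum and open symbols RPKM as deposited; dotted lines mark 2-fold. The open symbols of miR-3609, miR-3653 and miR-4485 lie above 2-fold, those of miR-1260a and miR-1260b below, and those of the other 4 names between the dotted lines.

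Neighbouring letters of MT-RNR2 did not give equal values. miR-1973 is bases 912 to 930 of that RNA and shares its first base with the last base of miR-4485. It was listed with 1.71 parental RPKM and 2.68 sphere RPKM, on 0.253 and 0.287 estimated reads, both under the same floor of 3 reads. In spheres miR-4485 had 168 RPKM.

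Fractions of reads were common among the 9. On their own mature lengths, miR-3651 came out whole in both libraries (within 0.005 of a read), and none of the other 6 names with a known length did in either. Among all names with a known length and 2 to 120 estimated reads, 41.7% of 350 values in parental cells and 33.3% of 228 in spheres were whole within the same tolerance. How the authors counted a read that matches several places is not given in the sources used here, and its part in these values was not tested.

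Further miRNA entries listed under the same kinds of parents were mostly too rare to compare. Of 7 other listed snoRNA-like names, 6 were above 0 and 1 reached the minimum mean. That one, miR-3607-3p, whose gene RefSeq gives as SNORD138, had 602 RPKM in parental cells and 191 in spheres. It was 3.15-fold lower as deposited (1.997 to 5.14) and 1.53-fold higher as a share (0.936 to 2.41). The other C/D snoRNA entry, miR-3653, was 6.09-fold higher as deposited and 29.3-fold higher as a share. These 2 entries thus did not share a direction on the deposited scale. miR-3653 passed the minimum mean through its sphere value alone, while miR-3607-3p reached that level in both libraries. The contrast is therefore in part fixed by selection, and it supports no statement about the class.

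miR-1248, which is the first 27 bases of the H/ACA snoRNA SNORA81, had 2.75 RPKM in parental cells and 52.6 in spheres, on 0.577 and 8 estimated reads. miR-1291, bases 2 to 25 of SNORA2C, had 12.5 and 41.9 RPKM, on 2.33 and 5.66 reads. miR-664b-3p, found whole in SNORA36A and SNORA36C at the same distance of 3 bases from the 3′ end as miR-664a-3p in SNORA36B, had 16.3 and 18.8 RPKM, on 2.79 and 2.33 reads. Its opposite arm, miR-664b-5p, had 2.68 and 19.7 RPKM, on 0.5 and 2.67 reads. These 4 names had at most 3 parental reads, so their folds are not given. Of the other listed tRNA-like names, miR-3676-3p and miR-3676-5p were above 0, with at most 2.20 estimated reads in either library. Of the other listed mitochondrial names, miR-4461 had 48.9 RPKM in parental cells and 25.6 in spheres, on 8.37 and 3.17 reads. These 2 values lay within counting error. The parent RNAs of miR-3676-3p, miR-3676-5p and miR-4461 were not checked here. With all listed names added, the snoRNA sum was 4.60-fold higher as a share (3.65 to 5.79) in place of 7.93-fold, the tRNA sum 2.11-fold (1.61 to 2.75) and the mitochondrial sum 9.98-fold (5.79 to 17.5). As deposited, the wider snoRNA sum lay within counting error between the libraries, as given above. The wider tRNA sum was 2.28-fold lower (1.75 to 2.999) and the wider mitochondrial sum 2.07-fold higher (1.20 to 3.63).

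For each of the 9 names, the measured name outside the set with the most similar pair of levels was found, as the smallest distance between log2 values in the plane of the 2 libraries. Likeness over 2 libraries is a weak measure and is given as a description. miR-3651 lay nearest to miR-135b-5p (distance 0.14), miR-664a-3p to miR-23c (0.18) and miR-4454 to miR-31-3p (0.068). Both miR-1260 names lay nearest to miR-96-5p, at 0.21 and 0.25. miR-4485 and miR-3653 both lay nearest to miR-3195, at 0.088 and 0.41, miR-3609 to miR-4516 (0.46) and miR-4284 to miR-4532 (0.15).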

How the data were processed

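Per the labels' protocols, 1 µg of total RNA went into each size-fractionated TruSeq small RNA library. The authors deposited 1 RPKM value per miRNA name and library, per the file headers. The submitters' processing notes name hg19, while the aligner, the counting tool and the treatment of multiply matching reads are not stated there.

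Names were matched without the hsa- prefix and case. Each column was rescaled to sum to 1000000. The log2 fold is log2((spheres + 0.5)/(parental + 0.5)), so that low names appear less changed than they are, while folds with intervals carry no pseudocount. Names averaging 10 rescaled RPKM or more count as measured, and higher or lower means at least 2-fold. Reads were estimated as RPKM times mature length (RefSeq, found for 764 of 903 parental and 550 of 672 sphere names above 0, otherwise 22 nt) over the value of 1 read. The commonest such product was taken as 1 read. Whether it is 1 read or a small multiple was not tested. A plan written without the lengths had 22 nt first, and own lengths were preferred once the steps were seen to follow them. The 3-read floor at 22 nt is 17.5 RPKM for parental cells and 24.2 RPKM for spheres. The design was planned for RPKM, without a count model, and no p-value is given. The steps were tested on simulated data.

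The names described are the 9 members, their opposite arms, the other listed names above 0 and the nearest measured name of each member. The members and all lists were chosen with earlier results of these data known. Python 3.11.15, pandas 2.3.3 and SciPy 1.17.1 were used, with GENCODE 29 and RefSeq GRCh38.p14 for sequences and positions. The alternatives tried were RPKM as deposited, 4 further scalings, 2 pseudocounts, 2 filters, a stricter call rule, wider classes and 22 nt for all.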

Additional observations from a re-analysis of the deposited data

How the results depend on the processing

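RPKM as deposited changed most. It turned the log2 folds of 5 names below 0, miR-3651 (-0.042), miR-664a-3p (-0.63), miR-4454 (-0.29), miR-1260a (-1.51) and miR-1260b (-1.57), as well as that of the tRNA sum (-1.24) and the median of the 9 names (-0.042). The mitochondrial sum stayed above 0, at 1.48, and the snoRNA sum at 0.72, but with the other listed snoRNA-like names added the latter was -0.065 (-0.40 to 0.27). It gave 3 names of the 9 at least 2-fold higher and 2 lower (the near-identical miR-1260a and miR-1260b), and 17 and 214 of all 269. This lies in its construction, since the RPKM sums differ 4.82-fold. Under the trimmed mean, the median of ratios, the upper quartile and the sum without the 5 most abundant names, log2 folds moved by -0.19, -0.21, -0.32 and -0.096. The same number of the 9 names, 7, was at least 2-fold higher, beside 51 to 56 of all 269. The tRNA sum, at 1.02, fell under 2-fold with each of these 4 (0.70 to 0.93) and with a pseudocount of 5 (0.97). The pseudocount of 5 also gave 2.71 for the mitochondrial sum, in place of 3.59. Adding the other listed names gave 2.19 for the snoRNA sum, in place of 2.95. With no filter, 193 names were higher and 180 lower. At a mean of at least 100, 0 of the 9 were counted, and 23 of 129 names were higher and 18 lower. A whole interval beyond 2-fold left 6 of the 9 and 45 of all 269 names higher, and 0 of the 9 and 17 of all 269 lower. With 22 nt for all, each of the 14 read estimates stayed within its counting interval. Few reads limit every fold, 12.7 to 26 a name in spheres and, for miR-3609, miR-3653, miR-4485 and miR-4284, only 3.67 to 9.02 in parental cells. No paired analysis was possible because each group is a single library, and no replicate could be left out.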

Other observations

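Entries listed as resembling other abundant non-coding RNAs, given for comparison only, had these values. Their parent RNAs were not checked here by sequence or position. The rRNA-like miR-663a had 6.81 RPKM in parental cells and 133 in spheres, on 1.17 and 16.4 estimated reads, and miR-3656 had 26.3 and 67.3 RPKM, on 4.51 and 8.34 reads. miR-3648 had 49.5 and 107 RPKM, a 2.17-fold higher deposited value with an interval that includes no difference (0.829 to 6.03). miR-3687 had 91.0 and 118 RPKM, at a ratio of 1.30 (0.593 to 2.84). miR-6087 had 957 and 3763 RPKM, 3.93-fold higher as deposited (3.28 to 4.73). The snRNA-like miR-1246 had 16.7 and 297 RPKM, on 2.47 and 31.8 reads, and miR-1290 had 4.82 and 1657 RPKM, on 0.713 and 177 reads. All 7 were higher in spheres on both scales, though the deposited interval includes no difference for miR-3648, miR-3687 and miR-3656 (0.724 to 10.6). Of the 269 measured names, 137 were higher as a share and 28 as deposited. The list was chosen with earlier results known, and all but miR-6087 had under 10 rescaled RPKM in parental cells. There, miR-663a, miR-1246 and miR-1290 were also under the floor of 3 reads. The shared direction is therefore in part fixed by selection.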
